A study of Mus musculus with 13 samples.

Results

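The 10 glucocorticoid-response genes described here were followed in interscapular brown adipose tissue (iBAT), the main thermogenic fat depot of the mouse. They are Ddit4, Fkbp5, Tsc22d3, Zbtb16, Sgk1, Mt1, Mt2, Cdkn1a, Nr3c1 and Hsd11b1. Of 42416 gene identifiers counted, 13360 passed a filter on low counts, and all 10 of these genes were among them. The genes were chosen by name, and Ddit4 was selected on its CPM, which was higher in part of the libraries labelled iFAXLKO, so its difference between the groups is given as a description and without a test.

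Bulk RNA sequencing covered 8 libraries labelled iFAXLKO and 5 labelled WT. Per the labels and methods, iFAXLKO mice carry loxP-flanked Axl, a receptor tyrosine kinase, together with Adipoq-CreERT2, an inducible Cre placed under Adipoq regulatory sequences on a bacterial artificial chromosome, which limits recombination to adipocytes. The WT mice carry the same floxed Axl without Cre. Both groups were female, received tamoxifen every 3 weeks and ate a high-fat diet (HFD) while housed at room temperature. The hour of dissection is not given in the sources used here.

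Total counts ran from 22.44 to 32.60 M (mega) per library, and levels are given as CPM, counts per M counts of the library. The 10 genes held between 117 and 12507 counts in a library, far above the 3 counts that a count of 0 allows, which correspond to 0.092 to 0.134 CPM. Such floors cover counting error only. The targeted gene, Axl, stood at 33.1 ± 6.16 CPM (SD, n = 8) in iFAXLKO and 27.8 ± 3.82 CPM (SD, n = 5) in WT, hence no lower with Cre (log2 fold change 0.25, SE 0.13, adjusted edgeR p 0.699, exact permutation p 0.101). This goes against the label, although these counts span the whole gene and every cell of the depot, and all directions reported here rest on the labels. The summed level of 10 brown adipocyte markers was at least 8678 CPM in every library, with Ucp1 at 5599 ± 1121 CPM in iFAXLKO and 6367 ± 914 CPM in WT. Single markers were far lower, as Ppargc1a at 36.6 and 38.4 CPM. Of the 10, 9 had a negative log2 fold change. At an unadjusted edgeR p under 0.05, 1 was lower and 0 higher, beside 3.54% and 3.84% of all genes. That gene was Elovl3, at a log2 fold change of -0.69 (SE 0.21, adjusted edgeR p 0.474, exact permutation p 0.00622). Transcripts of skeletal muscle, which lies next to the depot, varied widely, the summed level of 10 muscle markers running from 2.83 to 5225 CPM in iFAXLKO and from 21.6 to 3616 CPM in WT. In bulk tissue, fewer cells of a type and less RNA per cell cannot be told apart.

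Glucocorticoids act through the receptor encoded by Nr3c1, which is held by HSP90 chaperones until it binds hormone and then enters the nucleus to activate or repress genes. The enzyme encoded by Hsd11b1 regenerates active corticosterone inside cells, and FKBP5 is a cochaperone that lowers the affinity of the receptor and is itself induced, which closes a feedback loop. Tsc22d3 (GILZ), Zbtb16 (PLZF), Sgk1, the metallothioneins Mt1 and Mt2, Cdkn1a (p21) and Ddit4 (REDD1) are known as induced genes in many tissues, yet several also answer to other inputs: Ddit4 to hypoxia and stress, Cdkn1a to p53, and the metallothioneins to zinc.

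RefSeq promoter windows of GRCm38.p6 were searched for the letters of these inputs in the 250 bases before each gene start. Windows were matched for 8 of the 10 genes, 16 windows in all, and not for Zbtb16 and Nr3c1. Both strands were searched. The full receptor site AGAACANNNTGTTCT was found in 1 of the 16 windows, one of the windows of Sgk1, and in 3 of 32851 windows overall (0.00913%). Its single arm TGTTCT, which the full site contains, was found in 4 of the 16 windows, belonging to Tsc22d3 and Sgk1, against 16.1% of all windows. The metal response core TGCGCNC or TGCACNC was found in 4 windows, those of Ddit4, Mt1, Mt2 and Hsd11b1, against 21.4% overall. The hypoxia response core ACGTG or GCGTG, which is read from either strand at a CACGTG palindrome and is then counted at overlapping positions, was found in 9 of the 16 windows, against 38.6% overall. The windows of 4 genes are printed, 5′ to 3′ on the strand of the gene and without bases inside an annotated exon of the gene, because each shows where the letters of a hormone, oxygen or metal input lie. The letters do not divide the genes by input. The Sgk1 window also holds 1 CACGTG palindrome, counted as 2 overlapping hypoxia cores, the Mt1 window 2 separate hypoxia cores and the Mt2 window 1. None of these is marked as a hypoxia core, but that of Mt2, 52 bases before the start, overlaps the marked metal core at 50 bases. Capitals mark the full receptor site in Sgk1 (chr10:21993640-21993889, plus strand), the hypoxia cores in Ddit4 (chr10:59951835-59952020, minus strand) and the metal cores in Mt1 (chr8:94178839-94179081, plus strand) and Mt2 (chr8:94172368-94172617, plus strand).
Sgk1: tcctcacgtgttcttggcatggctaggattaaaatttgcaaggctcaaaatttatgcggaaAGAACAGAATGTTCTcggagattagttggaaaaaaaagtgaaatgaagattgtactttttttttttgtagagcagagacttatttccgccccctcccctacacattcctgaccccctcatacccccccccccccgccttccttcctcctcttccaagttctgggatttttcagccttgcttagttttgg
Ddit4: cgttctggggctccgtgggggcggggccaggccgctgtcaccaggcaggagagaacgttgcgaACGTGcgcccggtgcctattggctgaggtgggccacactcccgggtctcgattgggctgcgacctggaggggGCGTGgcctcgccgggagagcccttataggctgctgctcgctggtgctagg
Mt1: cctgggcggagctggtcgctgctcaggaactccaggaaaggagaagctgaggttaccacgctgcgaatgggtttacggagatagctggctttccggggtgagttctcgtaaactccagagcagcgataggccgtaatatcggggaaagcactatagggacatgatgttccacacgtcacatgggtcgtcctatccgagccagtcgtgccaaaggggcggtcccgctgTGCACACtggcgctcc
Mt2: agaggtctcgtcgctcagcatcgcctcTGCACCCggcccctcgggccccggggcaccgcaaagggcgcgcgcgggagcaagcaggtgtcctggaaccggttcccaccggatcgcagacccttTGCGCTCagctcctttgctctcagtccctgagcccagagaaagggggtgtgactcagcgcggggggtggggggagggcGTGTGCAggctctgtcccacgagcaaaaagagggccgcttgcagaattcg
The receptor site of Sgk1 began 189 bases before the start of that RefSeq transcript. The hypoxia cores of Ddit4 began 187 and 115 bases before its start, and a metal core overlapped the first of them at 184 bases. Mt2 held 3 metal cores, where 1.26% of all windows held 3 or more, and Mt1 held 1. These matches are letters in a window and say nothing about binding in these samples.

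Between the groups, 0 of the 9 genes other than Ddit4 passed an adjusted p of 0.05 in edgeR's quasi-likelihood test, where 0.127% of all genes tested passed, 0.0973% of all genes higher and 0.0299% lower in iFAXLKO. At an unadjusted p under 0.05 the count was also 0 of 9, against 7.38% of all genes (3.84% higher, 3.54% lower). DESeq2 and limma-voom called 0 of 9 as well, also at an unadjusted p under 0.05, with 0.502% and 0.172% of all genes called. The adjusted edgeR p-values lay between 0.732 and 0.988, and the exact permutation p-values on mean CPM lay between 0.171 and 0.903, 2-sided, over the 1287 ways of dividing 13 libraries into 8 and 5, for which 0.000777 is the smallest possible. The CPM ranges of the groups overlapped for all 10 genes, whereas 0.434% of genes tested did not overlap. The median log2 fold change of the 9 genes was 0.22, beside -0.01 over all genes tested. Within a group, by contrast, the libraries lay far apart for most of these genes.

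**Figure D1:**
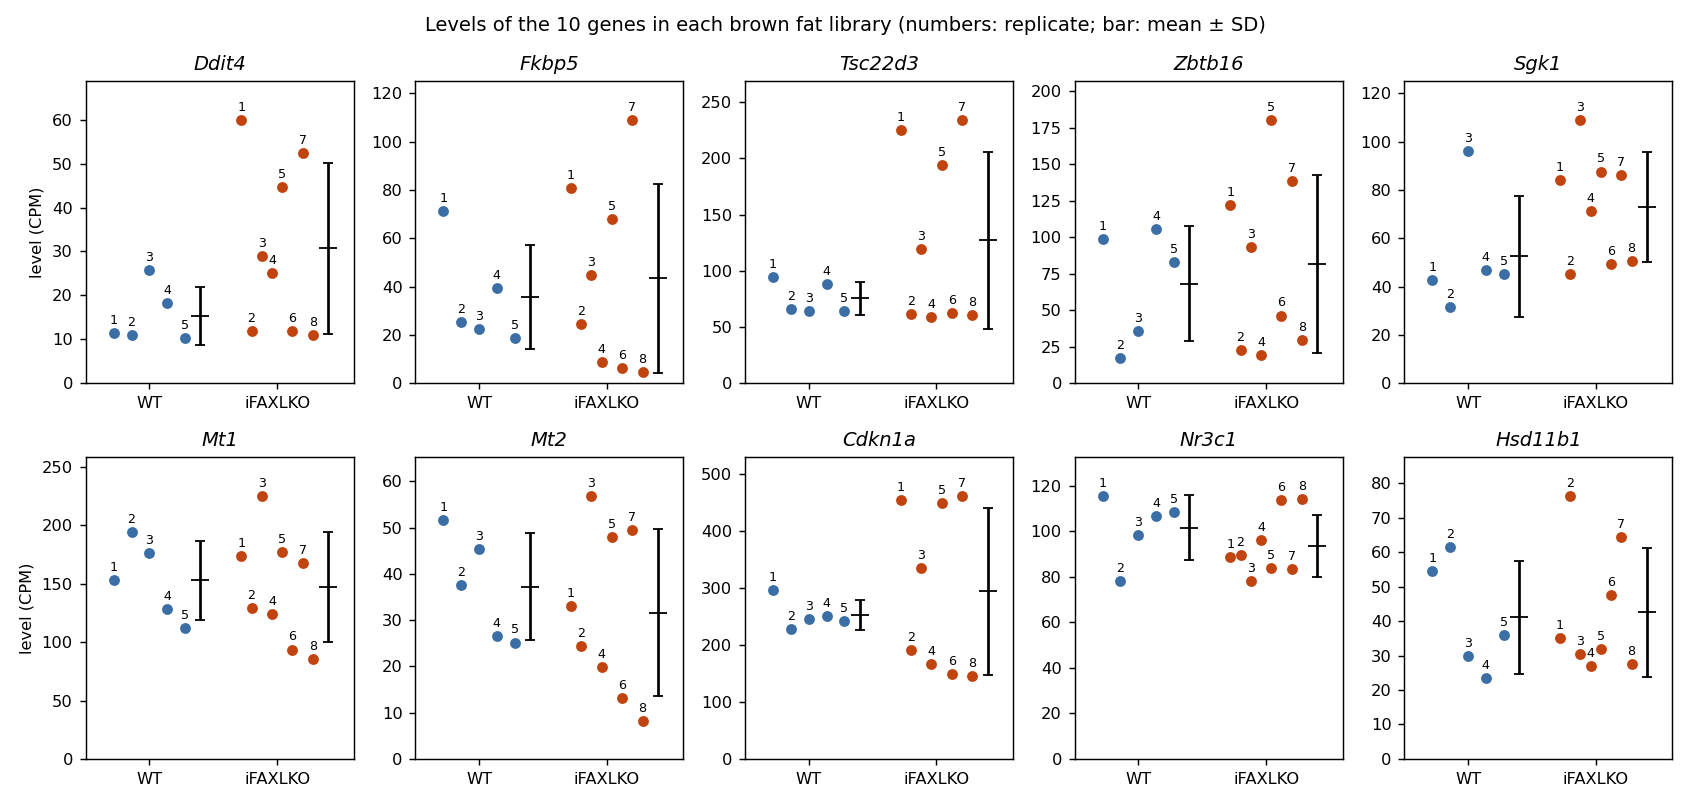
Level in CPM (vertical axis, from 0) of each of the 10 genes in the 5 WT (blue) and 8 iFAXLKO (red) libraries; each point is 1 library with its replicate number and the black bar is the mean ± SD of the group. For Ddit4, Fkbp5, Tsc22d3, Zbtb16, Sgk1, Mt1, Mt2 and Cdkn1a the highest 4 red points are replicates 1, 3, 5 and 7, while the group ranges overlap for every gene.

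Ddit4 (ENSMUSG00000020108, chromosome 10, 59949669 to 59951834, minus strand, GRCm38) encodes an inhibitor of mTORC1 signalling that acts through the TSC complex. In the libraries labelled iFAXLKO it ran from 11.03 to 59.8 CPM with a median of 26.9 CPM, and in WT replicates 1 to 5 it was 11.5, 10.9, 25.7, 18.2 and 10.2 CPM. The 4 libraries labelled iFAXLKO above the WT maximum were replicate 1 at 59.8, replicate 7 at 52.5, replicate 5 at 44.6 and replicate 3 at 28.9 CPM. Replicate 4, at 25.0 CPM, fell just inside the WT range, and replicates 2, 6 and 8, at 12.0, 11.8 and 11.03 CPM, sat with the lower WT libraries. The mean was 30.7 ± 19.4 CPM (SD, n = 8) in iFAXLKO and 15.3 ± 6.64 CPM (SD, n = 5) in WT, with a log2 fold change of 1.00 (SE 0.49), and 5 of 8 libraries exceeded the WT mean. Leaving out any 1 library gave log2 fold changes between 0.79 and 1.29. The library numbers in the labels were cut here into a lower range (4 iFAXLKO, 2 WT) and an upper range (4 iFAXLKO, 3 WT). The labels do not mark this division, and the numbers also have gaps elsewhere, so the ranges are not known to be batches. Within the lower and upper range the log2 fold change was 1.49 and 0.73.

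Sgk1, a kinase of the AKT family that acts on ion transport and FOXO factors, was highest in the same WT library as Ddit4 and in the same 4 libraries labelled iFAXLKO. It ran from 45.2 to 109 CPM in iFAXLKO with a median of 77.7 CPM, and was 42.7, 31.6, 95.9, 47.0 and 45.3 CPM in WT replicates 1 to 5. WT replicate 3, also the WT library with the most Ddit4, stood far above the other WT libraries. The group means were 72.9 ± 22.7 CPM (SD, n = 8) and 52.5 ± 25.0 CPM (SD, n = 5), which differed by 0.47 in log2 units (SE 0.28, adjusted p 0.748, exact permutation p 0.171). Without WT replicate 3 the difference was 0.82 in log2 units (SE 0.23), and the adjusted p of 0.605 still missed the limit. In the lower range of library numbers it was 1.06 and in the upper range 0.12, with adjusted p-values of 0.505 and 0.991.

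Cdkn1a encodes p21, an inhibitor of cyclin-dependent kinases that is also present in resting tissue. The 4 highest libraries labelled iFAXLKO were replicates 7, 1, 5 and 3, at 461, 454, 450 and 335 CPM, and each lay above every WT library. The other 4, replicates 2, 4, 6 and 8, at 190, 166, 149 and 145 CPM, lay below every WT library. In WT replicates 1 to 5 the level was 297.2, 228, 245, 250 and 242 CPM. The libraries labelled iFAXLKO thus lay on both sides of a narrow WT range, and the means of 294 ± 146 CPM (SD, n = 8) and 253 ± 26.2 CPM (SD, n = 5) differed by 0.22 in log2 units (SE 0.32, adjusted p 0.939, exact permutation p 0.539). A transcript on the opposite strand shares 273 exon bases with Cdkn1a, but it held 43 counts over the 13 libraries against 97771 for Cdkn1a.

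Tsc22d3 encodes GILZ, a leucine zipper protein that restrains inflammatory transcription factors. It ran from 59.3 to 234 CPM in iFAXLKO with a median of 90.9 CPM, and was 94.8, 65.6, 64.2, 88.0 and 64.4 CPM in WT. As for Cdkn1a, 4 libraries labelled iFAXLKO lay above every WT library, replicates 7, 1, 5 and 3 at 234, 225, 194 and 120 CPM. The other 4 lay between 59.3 and 62.3 CPM, only just below the WT minimum of 64.2 CPM. Unlike for Cdkn1a, this lower gap rested on the TMM factors. Without those factors, the 4 libraries ran from 60.8 to 63.0 CPM, above WT replicate 2 at 58.9 CPM. The group means, 127 ± 78.4 CPM (SD, n = 8) and 75.4 ± 14.8 CPM (SD, n = 5), differed by 0.75 in log2 units (SE 0.41, adjusted p 0.732, exact permutation p 0.250), less than the spread between libraries.

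Zbtb16 encodes PLZF, a zinc finger repressor. Its level ran from 19.0 to 180 CPM in iFAXLKO, with a median of 69.8 CPM, and was 98.7, 17.3, 35.8, 106 and 83.1 CPM in WT. Here the WT libraries were themselves wide apart, and only replicates 5, 7 and 1 of the libraries labelled iFAXLKO, at 180, 138 and 122 CPM, lay above them. The means were 81.4 ± 60.9 CPM (SD, n = 8) and 68.2 ± 39.4 CPM (SD, n = 5), and their difference was 0.26 in log2 units (SE 0.64, adjusted p 0.970). Without iFAXLKO replicate 5 it was -0.019.

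Fkbp5 varied most of the 10 genes. It ran from 4.66 CPM in replicate 8 to 109 CPM in replicate 7 of the libraries labelled iFAXLKO, a 23.4-fold span, with a median of 34.6 CPM. In WT replicates 1 to 5 it was 71.4, 25.4, 22.4, 39.5 and 18.8 CPM. The 2 highest libraries labelled iFAXLKO were above the WT maximum and the 3 lowest, replicates 4, 6 and 8 at 8.81, 6.45 and 4.66 CPM, were below the WT minimum. The means were 43.3 ± 39.1 CPM (SD, n = 8) and 35.5 ± 21.5 CPM (SD, n = 5), and differed by 0.29 in log2 units (SE 0.76, adjusted p 0.972, exact permutation p 0.709). Its direction turned to -0.064 without iFAXLKO replicate 7 and to -0.40 in limma-voom with sample quality weights.

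The metallothioneins bind zinc and copper and buffer oxidants. Mt1 ran from 86.0 to 225 CPM in iFAXLKO, with a median of 148 CPM, and was 154, 195, 177, 128 and 112 CPM in WT. Mt2 ran from 8.20 to 56.8 CPM in iFAXLKO, with a median of 28.8 CPM, and was 51.6, 37.6, 45.4, 26.6 and 25.2 CPM in WT. For Mt2, 4 libraries labelled iFAXLKO lay below the WT minimum and 1 lay above the WT maximum. Both counts rested on the TMM factors. Without them, iFAXLKO replicate 2 at 24.5 CPM was above WT replicate 5 at 24.0 CPM. Likewise, iFAXLKO replicate 7 at 51.9 CPM was then above WT replicate 1 at 50.3 CPM. The log2 fold changes were -0.06 (SE 0.22, adjusted p 0.981) for Mt1 and -0.24 (SE 0.43, adjusted p 0.953) for Mt2, both smaller than the spread between libraries. The genes are close paralogues, so reads may be split between them with some uncertainty, and the metallothioneins' own log2 levels followed each other with a Pearson r of 0.91 over the 13 libraries.

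The genes of the receptor and of the enzyme that feeds it were not highest in the same 4 libraries as Ddit4. Nr3c1 ran from 78.2 to 114 CPM in iFAXLKO, with a median of 89.1 CPM, and was 115, 78.3, 98.5, 107 and 109 CPM in WT, and in iFAXLKO its range was the narrowest of the 10 genes. Its log2 fold change was -0.12 (SE 0.11) with an adjusted p of 0.879. Its 4 highest libraries labelled iFAXLKO were replicates 2, 4, 6 and 8, the 4 in which Ddit4 was lowest. The lowest of those for Nr3c1, replicate 2 at 89.4 CPM, was close to replicate 1 at 88.8 CPM. Without TMM factors, replicate 1 was above replicate 2, at 89.9 and 89.5 CPM. Hsd11b1 ran from 26.9 to 76.3 CPM in iFAXLKO, with a median of 33.4 CPM, and was 54.7, 61.6, 29.8, 23.5 and 36.0 CPM in WT, and its log2 fold change was 0.05 (SE 0.31, adjusted p 0.988). Its direction turned without iFAXLKO replicate 2 or 7 or WT replicate 3 or 4, and in the lower range of library numbers it was -0.45. The 12 other tested genes of receptor and ligand supply came from a list of 14, chosen with earlier results of these data known. They included 0 calls and had a median log2 fold change of -0.19. At an unadjusted p under 0.05, 5 of the 12 were lower and 0 higher, beside 3.54% and 3.84% of all genes. These were the chaperone genes Hsp90aa1, Hsp90ab1, Hspa8 and Stip1 and the coactivator Ncoa1, at log2 fold changes of -0.61, -0.29, -0.39, -0.48 and -0.26, with adjusted p-values of 0.462, 0.535, 0.554, 0.558 and 0.628. H6pd, which supplies the cofactor of the Hsd11b1 enzyme, had a log2 fold change of -0.06. Hsd11b2, the enzyme that inactivates corticosterone, was under the filter, at 0.0287 ± 0.0523 CPM in iFAXLKO and 0.0307 ± 0.0429 CPM in WT, below the floor.

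**Figure D2:**
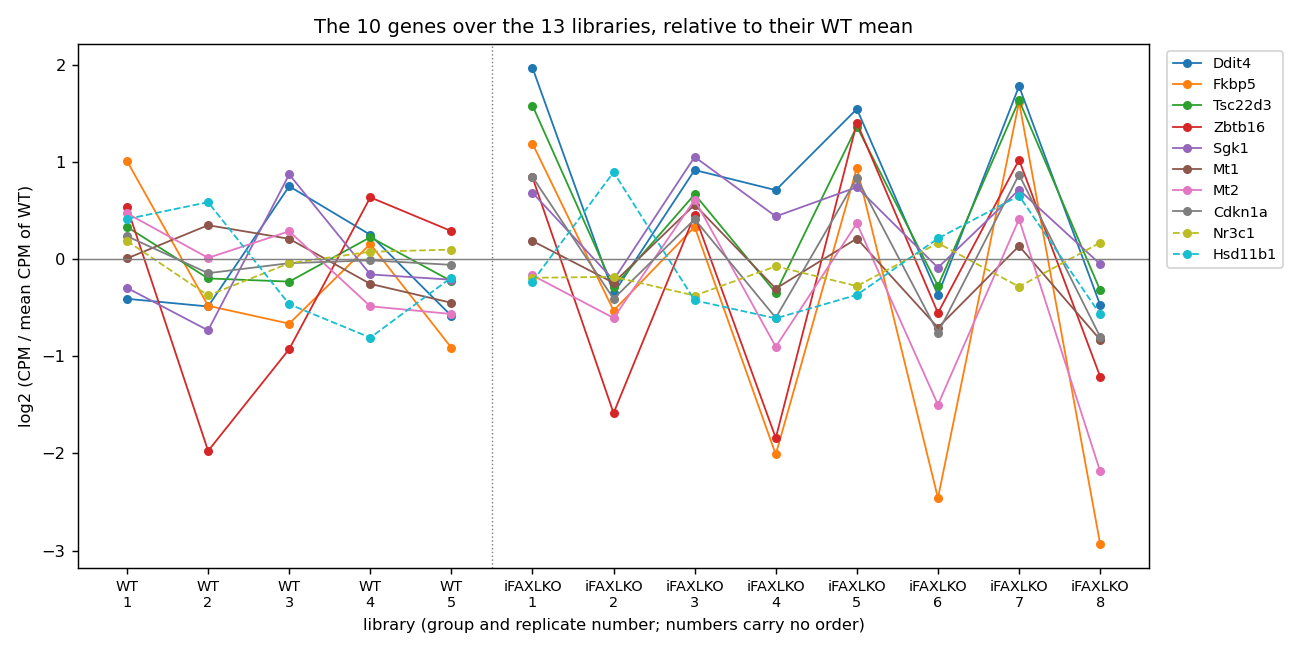
Each of the 10 genes over the 5 WT and 8 iFAXLKO libraries, as the log2 ratio of its CPM to its mean CPM in WT; the dotted line divides the groups and the replicate numbers carry no order. Replicates 1, 3, 5 and 7 of iFAXLKO carry peaks of Ddit4, Fkbp5, Tsc22d3, Zbtb16, Sgk1 and Cdkn1a. Nr3c1 (dashed) does not share them, and Hsd11b1 (dashed) is highest in replicates 2 and 7.

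Replicates 1, 3, 5 and 7 were the 4 highest libraries labelled iFAXLKO for Ddit4 and for 7 of the 9 other genes. Of all genes tested, 585 (4.38%) had the same 4 libraries highest. This count was made after the values were seen. Mitochondrially encoded genes took from 18.3% to 21.3% of the counts of a library, and their share had a Pearson r of -0.68 with log2 Ddit4 over the 13 libraries. The macrophage marker score, a mean over 8 genes, had an r of 0.64, the TMM factor of the library 0.54 and Axl 0.48. The fibroblast and endothelial scores had 0.44 each, and the skeletal muscle and keratinocyte scores 0.34 each. For the brown adipocyte score r was -0.04, for the lymphocyte score -0.11 and for the total count 0.04. With the macrophage score removed from both genes by regression, r with Ddit4 was 0.79 for Tsc22d3 and 0.74 for Cdkn1a, and with the mitochondrial share removed it was 0.72 and 0.60, from 0.85 and 0.77. For Nr3c1, r was -0.30 with the macrophage score removed, from -0.55. The settings that keep all libraries also included Spearman's rho and subtracted group means. The lowest value in them was 0.38 for Fkbp5 (from 0.61), 0.32 for Mt1 (from 0.56) and 0.32 for Mt2 (from 0.49). For Sgk1 the lowest was 0.76 (from 0.84) and for Zbtb16 0.51 (from 0.56). Beyond these values, the part of such traits in the pattern was not tested. The library numbers had an r of -0.23 with Ddit4. In the brown adipocyte list 10 of 10 genes passed the filter, with a summed level of 8678 to 13060 CPM in iFAXLKO and 10626 to 15639 CPM in WT, whereas the lymphocyte and keratinocyte lists had 1 and 2 of 8 markers past the filter. The summed lymphocyte markers stood at 45.9 CPM in WT replicate 1 and ran from 4.35 to 17.7 CPM in the other libraries.

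The spread within a group was wide for most of the genes. The coefficient of variation of Ddit4 was 63.3% in iFAXLKO and 43.4% in WT, of Fkbp5 90.2% and 60.6%, of Tsc22d3 61.8% and 19.7%, and of Cdkn1a 49.8% and 10.4%. Over all genes tested the medians were 12.4% in iFAXLKO and 15.9% in WT. As large a coefficient in iFAXLKO was found in 1.89% of genes for Ddit4, 1.16% for Fkbp5, 2.06% for Tsc22d3 and 3.01% for Cdkn1a. In WT, by contrast, 75.8% of genes varied at least as much as Cdkn1a. The coefficient was larger in iFAXLKO for 9 of the 10 genes, all but Sgk1, while 38.9% of all genes tested were so. With 8 against 5 libraries and Ddit4 chosen for its spread, these shares are given as a description.

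**Figure D3:**
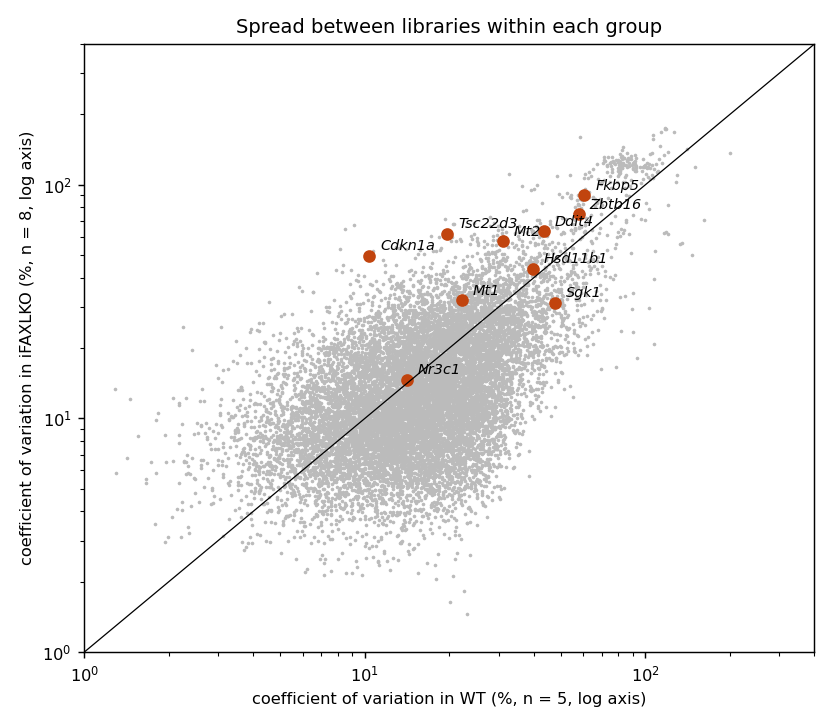
Coefficient of variation (%) of CPM between libraries in WT (horizontal, n = 5) and iFAXLKO (vertical, n = 8), both on log axes, for the 13360 genes tested (grey) and the 10 genes (red, named); the line marks equal spread. Of the 10 genes, Tsc22d3 and Cdkn1a lie furthest above the line, at 61.8% against 19.7% and 49.8% against 10.4%.

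The other 9 genes could be ordered by how closely their log2 CPM followed Ddit4 over the 13 libraries, which may share handling that the labels do not give. The Pearson r was 0.85 for Tsc22d3, 0.84 for Sgk1, 0.77 for Cdkn1a, 0.61 for Fkbp5, 0.56 for Mt1 and for Zbtb16, 0.49 for Mt2, -0.21 for Hsd11b1 and -0.55 for Nr3c1. Spearman's rho was 0.58 for Tsc22d3, 0.77 for Sgk1, 0.70 for Cdkn1a, 0.61 for Fkbp5 and -0.54 for Nr3c1. When the 2 libraries with the most extreme Ddit4 were set aside, r was 0.68 for Tsc22d3, 0.86 for Sgk1, 0.60 for Cdkn1a and 0.39 for Fkbp5 and for Zbtb16. Over all genes tested the median r was -0.01 and 8.20% of genes had an r of at least 0.5, as did 6 of the 9 genes. Several values differed between the 6 libraries in the lower range of library numbers and the 7 in the upper. They were -0.06 and 0.82 for Mt2, 0.22 and 0.89 for Mt1, 0.24 and 0.87 for Fkbp5, and -0.77 and 0.34 for Hsd11b1. With each group's mean subtracted, r was 0.73 for Fkbp5, 0.82 for Tsc22d3 and 0.80 for Sgk1. Within the 8 libraries labelled iFAXLKO alone, r was 0.92 for Tsc22d3 and for Cdkn1a, 0.86 for Fkbp5 and 0.85 for Sgk1. Within the 5 WT libraries, too few to carry a relation, it was 0.86 for Sgk1 but -0.05 for Tsc22d3, -0.09 for Cdkn1a and -0.11 for Fkbp5. Among the 28 pairs of the 8 genes other than Nr3c1 and Hsd11b1, the r ran from 0.30 to 0.94 with a median of 0.66. The highest was Fkbp5 with Cdkn1a, at 0.94.

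**Figure D4:**
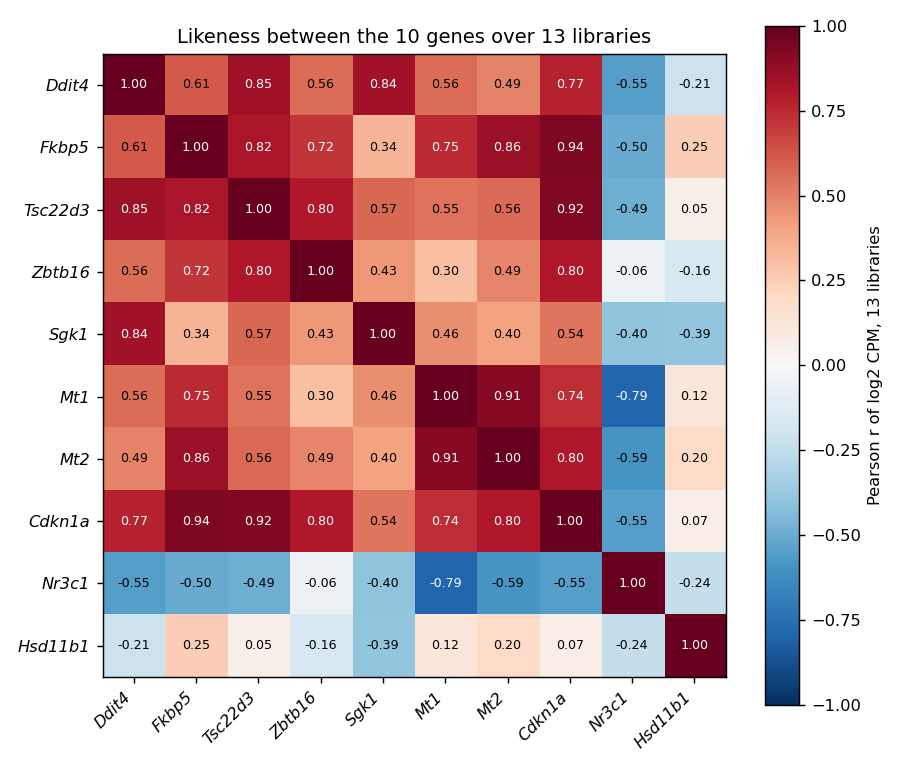
Pearson r of log2 CPM over 13 libraries between each pair of the 10 genes, with its value in each cell (red positive, blue negative). The 8 genes other than Nr3c1 and Hsd11b1 are positive with one another, with the highest value, 0.94, between Fkbp5 and Cdkn1a, and Nr3c1 is negative with Mt1 at -0.79.

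The genes most like Ddit4 among all tested were, by r, Sema7a (0.94), Cebpd (0.92), Slc43a3 (0.92), Kcna5 (0.91), Cnn3 (0.90), Rhoj (0.90), Lpin3 (0.89), Ctla2b (0.89), Slc10a6 (0.89) and Ap4b1 (0.88). The lowest were Nat8l (-0.93), Gorasp1 (-0.90), Napepld (-0.89), Eftud2 (-0.88) and 4921531C22Rik (-0.88). Tsc22d3 was the 29th and Sgk1 the 31st of 13360 genes by r.

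Per length of exon, the levels could be set side by side. In WT the order was Mt1 at 123 ± 27.2 CPM per kb, Cdkn1a at 71.1 ± 7.37, Mt2 at 63.4 ± 19.6, Tsc22d3 at 17.4 ± 3.42, Nr3c1 at 13.2 ± 1.87, Zbtb16 at 12.9 ± 7.45, Sgk1 at 10.7 ± 5.10, Hsd11b1 at 9.67 ± 3.85, Ddit4 at 8.72 ± 3.78 and Fkbp5 at 3.75 ± 2.27 (SD, n = 5). Neighbours from Nr3c1 down to Ddit4 differed by less than the larger of their SDs, and so did Cdkn1a and Mt2, while the other neighbouring pairs differed by more than either SD. In iFAXLKO the order was Mt1 at 118 ± 37.9 CPM per kb, Cdkn1a at 82.7 ± 41.1 and Mt2 at 53.8 ± 30.8, and from Tsc22d3 at 29.3 ± 18.1 CPM per kb downward it was Ddit4 at 17.5 ± 11.1, Zbtb16 at 15.4 ± 11.5, Sgk1 at 14.9 ± 4.64, Nr3c1 at 12.2 ± 1.78, Hsd11b1 at 10.01 ± 4.38 and Fkbp5 at 4.58 ± 4.13 (SD, n = 8). There, neighbours differed by less than the larger SD except Hsd11b1 and Fkbp5. The exon length of a gene counts every annotated exon, which lowers the values of genes with many isoforms.

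Genes known to be induced by glucocorticoids, other than the 10, were counted from a list of 28, of which 26 were tested and 0 called. The list was chosen with earlier results of these data known, so its counts are a description. At an unadjusted edgeR p under 0.05, 5 of the 26 were higher and 0 lower, beside 3.84% and 3.54% of all genes. The median log2 fold change was 0.24, against -0.01 over all genes. These 5 were Per1, a clock gene, at 0.83 (SE 0.31, adjusted p 0.554), Errfi1, an inhibitor of EGF receptor signalling, at 0.69 (SE 0.30, adjusted p 0.641), Cebpd, a transcription factor of early adipogenesis, at 0.63 (SE 0.28, adjusted p 0.647), Nfkbia, an inhibitor of NF-κB, at 0.38 (SE 0.16, adjusted p 0.619), and Sult1a1, a sulfotransferase, at 0.34 (SE 0.16, adjusted p 0.658). In that order, 6, 7, 6, 7 and 5 of the 8 libraries labelled iFAXLKO exceeded the WT mean. The exact permutation p on mean CPM was 0.045 for Per1, 0.062 for Errfi1, 0.109 for Cebpd, 0.059 for Nfkbia and 0.107 for Sult1a1. Their r with Ddit4 ran from 0.76 to 0.92, so these genes are not separate observations. Per1, Cebpd and Sult1a1 also had the same 4 libraries labelled iFAXLKO highest as Ddit4. Of the 26 genes, 11 had an r of at least 0.5 with Ddit4, and 8 (30.8%) had the same 4 libraries labelled iFAXLKO highest, beside 4.38% of all genes. The share was alike in 2 lists of other inputs, with 5 of 16 hypoxia genes (31.2%) and 3 of 12 clock genes (25.0%). Klf9 and Klf15, receptor targets in many tissues, were among the 8 of the glucocorticoid list, with r values of 0.62 and 0.75 and log2 fold changes of 0.03 and 0.37. Dusp1, Pdk4 and Angptl4, which glucocorticoids also induce, had r values of 0.39, -0.08 and -0.04.

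**Figure D5:**
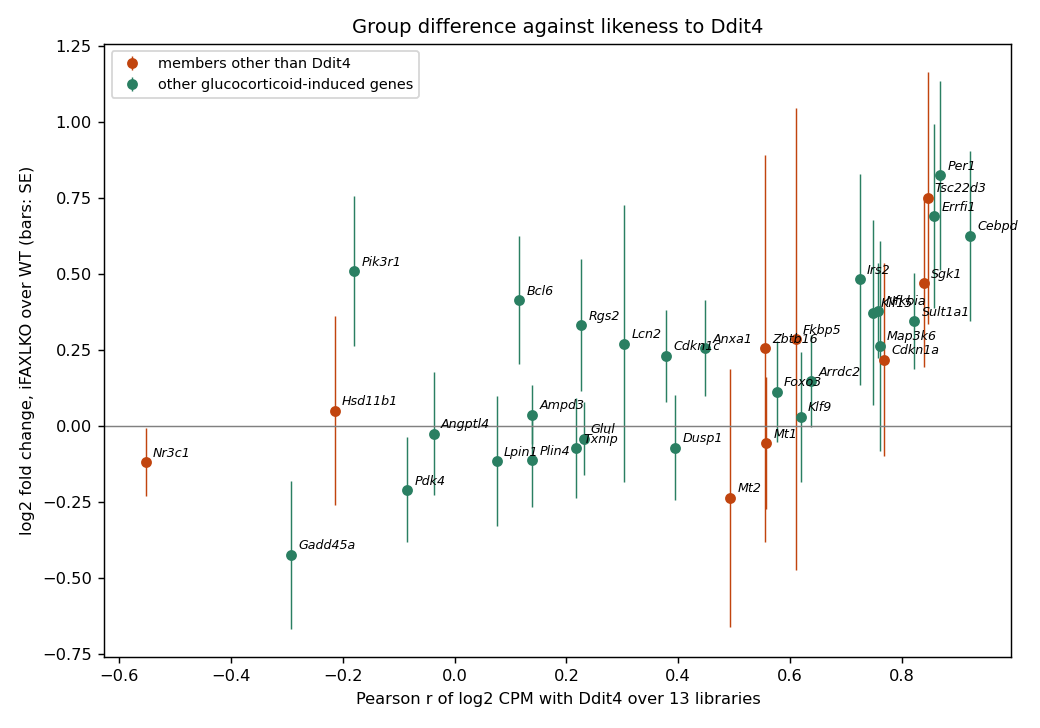
Log2 fold change of iFAXLKO over WT (vertical, bars are the SE) against the Pearson r of log2 CPM with Ddit4 over 13 libraries (horizontal) for the 9 genes other than Ddit4 (red) and 26 other glucocorticoid-induced genes (green). No gene in it passed an adjusted p of 0.05, and Cebpd, Per1 and Errfi1 sit at the upper right, at 0.63, 0.83 and 0.69. Ddit4 was selected for a rise in part of the libraries labelled iFAXLKO, and group means are not subtracted from this r. The axes are therefore not independent, and a place at the upper right is a description only.

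The other inputs of Ddit4 and Cdkn1a, and the pathway that Ddit4 acts on, had 0 genes called by edgeR in each of the lists named here. In the hypoxia response 0 of 16 genes had an unadjusted p under 0.05, with a median log2 fold change of -0.14. Of all genes tested 7.38% had such a p, so counts of 0 in lists this short say little about an input. In the integrated stress response, which also drives Ddit4, 0 of 10 tested genes did, with a median of -0.17, and in the p53 response 0 of 12, with a median of -0.03. Among 15 mTORC1 pathway genes, Sesn1, an upstream inhibitor, at a log2 fold change of 0.26, and Rheb, the activating GTPase, at -0.13, had an unadjusted p under 0.05, with adjusted values of 0.550 and 0.651. Of 7 tested metal response genes, Hmox1 had a log2 fold change of -0.52 (adjusted p 0.512). Of 12 clock genes, Cry1 had -0.25 (adjusted p 0.381), and of 11 immediate early genes 0 had an unadjusted p under 0.05. The r with Ddit4 reached 0.5 for 3 of the 16 hypoxia genes, 2 of the 10 stress response genes, 2 of the 12 p53 genes, 3 of the 12 clock genes, 3 of the 11 immediate early genes, 1 of the 7 metal response genes and 0 of the 15 mTORC1 genes, and for 8.20% of all genes. Among cell type markers it did so for 5 of 8 macrophage, 2 of 8 fibroblast and 2 of 8 endothelial genes. At an unadjusted edgeR p under 0.05, 7 of 8 macrophage markers and 8 of 8 fibroblast markers were higher in the libraries labelled iFAXLKO. Of all genes, 3.84% were higher at that limit. The median log2 fold changes of these markers were 0.41 and 0.69, with 0 calls by edgeR. DESeq2 called 2 of the fibroblast markers, and 0.502% of all genes. Summed macrophage markers ran from 132 to 264 CPM in iFAXLKO and from 112 to 162 CPM in WT, and fibroblast markers from 535 to 1183 CPM and from 387 to 693 CPM. Their part in the levels of the 10 genes was not tested.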

How the data were processed

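Bulk RNA sequencing of iBAT was analysed for 8 libraries labelled iFAXLKO and 5 labelled WT. The authors deposited raw counts, 1 whole number per Ensembl identifier. Per the methods they trimmed reads with Trim Galore and mapped them to GRCm38 with hisat2, whereas the submitters' processing notes list bcl2fastq 2.20, fastp 0.20.0, STAR 2.7.4a, DESeq2 and GRCm38.p6. The labels give polyadenylated RNA and the methods ribosomal RNA depletion. The counting tool and strand setting are not given in the sources used here, so reads of a gene and of an antisense partner cannot be told apart.

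Genes above 1 CPM in at least 5 libraries were kept, and counts with TMM factors were tested with edgeR 4.0.16 (quasi-likelihood F test, robust, 2-sided, Benjamini-Hochberg over 13360 genes, limit 0.05) in R 4.3.3. The standard error is the log2 fold change divided by the square root of F. Levels are CPM with TMM factors, and for log2 CPM the prior count was 2. An exact permutation test compared single values over 1287 splits with scipy 1.17.1. Alternatives were DESeq2 1.42.0, limma-voom (limma 3.58.1), other size factors and filters, covariates, within-range fits and leaving out each library. The script was tested on simulated data. The study gives its RNA sequencing groups as mice, and no 2 libraries of a group agreed within sampling noise (chi-square per degree of freedom at least 18.4), so each library was counted as 1 replicate. Gene positions are from GENCODE M21 and promoter windows from RefSeq.

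The members and lists were chosen with earlier results of these data known. Named genes are Axl, the 10 genes, the 10 most and 5 least like Ddit4, listed genes that were called or up to 4 with the smallest p, and listed genes needed for a role. The counts of shared highest libraries, the r limit of 0.5 and the likeness values with a score removed were added after seeing the data, as were Klf9, Klf15, Dusp1, Pdk4 and Angptl4 as named genes.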

Additional observations from a re-analysis of the deposited data

Results flagged for a closer look

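Sgk1 in WT replicate 3 was 95.9 CPM, and the next WT library was at 47.0 CPM. The gap was 0.760 of the range of the 5 WT libraries, above the limit of 0.710 for groups of that size. About 1 group in 20 would pass such a limit by chance, and 1 of the 22 groups checked did.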

How the results depend on the processing

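None of the 9 genes tested passed an adjusted p of 0.05 in edgeR, DESeq2 or limma-voom under any of the settings run, the lowest adjusted p being 0.188 for Sgk1 under the replicate block. The number of genes called over the whole table was 17, and it was 67 by DESeq2, 2 in the lower and 2 in the upper range of library numbers and 14 to 19 with 1 library left out. With the replicate number as a block it was 7, the log2 fold change of Mt1 was 0.11 and of Hsd11b1 -0.054. Same-numbered libraries did not deviate together throughout, with correlations from -0.61 to 0.42, so the numbers were not taken as pairs, and only 2 of 5 correlated best with their own number.

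The direction of 4 genes with log2 fold changes under 0.30 in size was not fixed, and the cause was not tested. Fkbp5 was -0.29 in the lower range of library numbers and -0.40 in limma-voom, and -0.064 (without iFAXLKO replicate 7) to 0.71 with 1 library left out. Zbtb16 was -0.36 in limma-voom and -0.019 (without iFAXLKO replicate 5) to 0.47 with 1 library left out. Mt1 was 0.017 with a muscle score as covariate, 0.0088 in limma-voom and -0.17 to 0.045 with 1 library left out, above 0 without WT replicate 2 or 3 or iFAXLKO replicate 6 or 8. Hsd11b1 was -0.45 in the lower range of library numbers and -0.12 to 0.24 with 1 library left out.

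The r with Ddit4 of Tsc22d3 was 0.58 by Spearman and 0.72 with the mitochondrial share removed, of Cdkn1a 0.60 with that share removed, of Mt2 0.70 with group means subtracted, and of Nr3c1 -0.30 with the macrophage score removed and -0.77 to -0.50 with 1 library left out, the lowest without WT replicate 2. In the other settings the log2 fold changes of the 9 genes kept their direction. The r of Fkbp5 was 0.38, of Mt1 0.32 and of Mt2 0.32 in the lowest of the settings that keep all libraries. No further depth limit applied, since the lowest count of a gene was 117.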

Other observations

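Outside the glucocorticoid and receptor supply lists, 14 of the 129 tested genes of the other lists (10.9%) had replicates 1, 3, 5 and 7 as their 4 highest libraries labelled iFAXLKO, where 4.38% of all genes did. Those named here were chosen after their values were seen. The hypoxia list held 5 of the 14, Vegfa, Adm, P4ha1, P4ha2 and Slc2a1, with r values with Ddit4 of 0.45, 0.70, 0.21, 0.51 and 0.40 over the 13 libraries. Cd163, a scavenger receptor of macrophages, was at 15.0 ± 6.73 CPM (SD, n = 8) against 10.7 ± 2.44 CPM (SD, n = 5), with an r of 0.82 with Ddit4 over the 13 libraries. The clock genes Per2 and Ciart had an r of 0.60 and 0.74 and log2 fold changes of 0.05 and 0.11. Dio2, the deiodinase that activates thyroid hormone in brown fat, had an r of 0.50 and a log2 fold change of -0.25 (adjusted edgeR p 0.932). These are values without a test of the pattern.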
